A study of Rattus norvegicus and Ovis aries with 113 samples.

Results

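The cerebellum of the sheep was compared with 9 other regions of the same brains. Its members were the 5 RNA-seq libraries whose titles carry the code for cerebellum, 1 from each of 5 animals, out of 50 sheep brain libraries and 113 libraries in the series as a whole. The animals, numbered 687, 688, 690, 694 and 699, were untreated post-pubertal male sheep, and breed is not given in the sources used here. Each gave 1 library of cerebellum, basal ganglia, entorhinal cortex, frontal cortex, hippocampus, motor cortex, pons, posterior parietal cortex, prefrontal cortex and visual cortex, all from 1 hemisphere. The series looks for genes that link the nervous and reproductive systems of mammals. The reference for the cerebellum was the mean of the 9 other regions, 45 libraries, paired with it by the animal number. Sperm libraries did not enter. How much cortex, white matter and deep nuclei each cerebellar sample held is not given in the sources used here.

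The cerebellum fine-tunes movement, and its cortex repeats a simple circuit. Very numerous small glutamatergic granule cells send parallel fibres onto the dendrites of Purkinje cells, which are inhibitory and form the only output of the cerebellar cortex. Molecular layer interneurons, Golgi cells and unipolar brush cells shape this traffic, Bergmann glia wrap the Purkinje cell synapses, and the deep nuclei carry the output to the rest of the brain.

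Library totals ranged from 54383662 to 59402538 counts over the 5 cerebella and from 46697655 to 72403425 counts over the 45 others. Values below are CPM, a gene's counts scaled to a common library total, here adjusted by edgeR's TMM factors (trimmed mean of M values), after 4 very abundant entries with placeholder names had been left out of the totals. CPM is not corrected for gene length, so levels are compared between samples and not between genes. On log-scale values of 17500 genes, the cerebella correlated with each other at 0.9846 to 0.9888 and with libraries of other regions at 0.8249 to 0.9023, as a description. One library stood apart on the genes described here. The entorhinal cortex of sheep 687 held a median of 3.43% of the cerebellar mean over the 12 genes named below for the largest rise, and 1.94 to 6.82% for single genes. The next library, a pons, held a median of 1.30%. The pons of sheep 694 reached 54.5% of the cerebellar mean for 1 of these genes, PAX3. Leaving out these 2 libraries gave 6225 called genes in place of 6177.

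The cerebellum differed from the rest of the brain in a large part of the transcriptome. Calls rest on edgeR's quasi-likelihood test with the animal as a block, at an adjusted p (Benjamini-Hochberg) under 0.05 together with a log2 change of 1 or more in either direction. Calls numbered 6177 (29.2%) of 21144 genes tested, with 2037 (9.63%) higher and 4140 (19.6%) lower in cerebellum. These shares are also the background for the counts of each list below. The median log2 fold change of all genes tested was -0.03. Among the called genes, 968 were higher with every cerebellum above all 45 other libraries (4.58% of genes tested) and 997 were lower with every cerebellum below them (4.72%). The same contrast made for other regions gave 4026 calls (19%) for pons, 2229 (10.5%) for basal ganglia, 1056 (4.99%) for hippocampus and 386 to 619 for the 6 areas of cortex (1.83% motor, 2.18% entorhinal, 2.2% visual, 2.54% posterior parietal, 2.81% prefrontal and 2.93% frontal). The order of the cortical areas is not stable: without 1 animal, entorhinal cortex had 190 (without sheep 699) to 733 (without 688), motor cortex as few as 218 (without 690) and prefrontal cortex 362 (without 690). Hippocampus had 673 without sheep 688. Against single regions, the cerebellum had 5634 (26.6%, motor cortex) to 7147 (33.8%, pons) called genes. The share was 27.1% against frontal, 28.8% against prefrontal and visual, 29.5% against posterior parietal and 29.6% against entorhinal cortex, 29% against hippocampus and 29.9% against basal ganglia. Genes called higher made up 8.68% against entorhinal, 9.66% against motor, 9.95% against posterior parietal, 10.1% against frontal, 10.2% against prefrontal and 10.3% against visual cortex, 9.17% against hippocampus, 11.1% against basal ganglia and 12.3% against pons, and those called lower 17% (frontal and motor cortex) to 21.5% (pons). These 9 comparisons share the cerebellar libraries. All p-values rest on the spread that remains among the 50 libraries after region and animal terms, pooled over the 10 regions, from 5 animals. In bulk tissue, fewer cells of a type and less RNA per cell cannot be told apart, and this holds for every gene below.

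**Figure D1:**
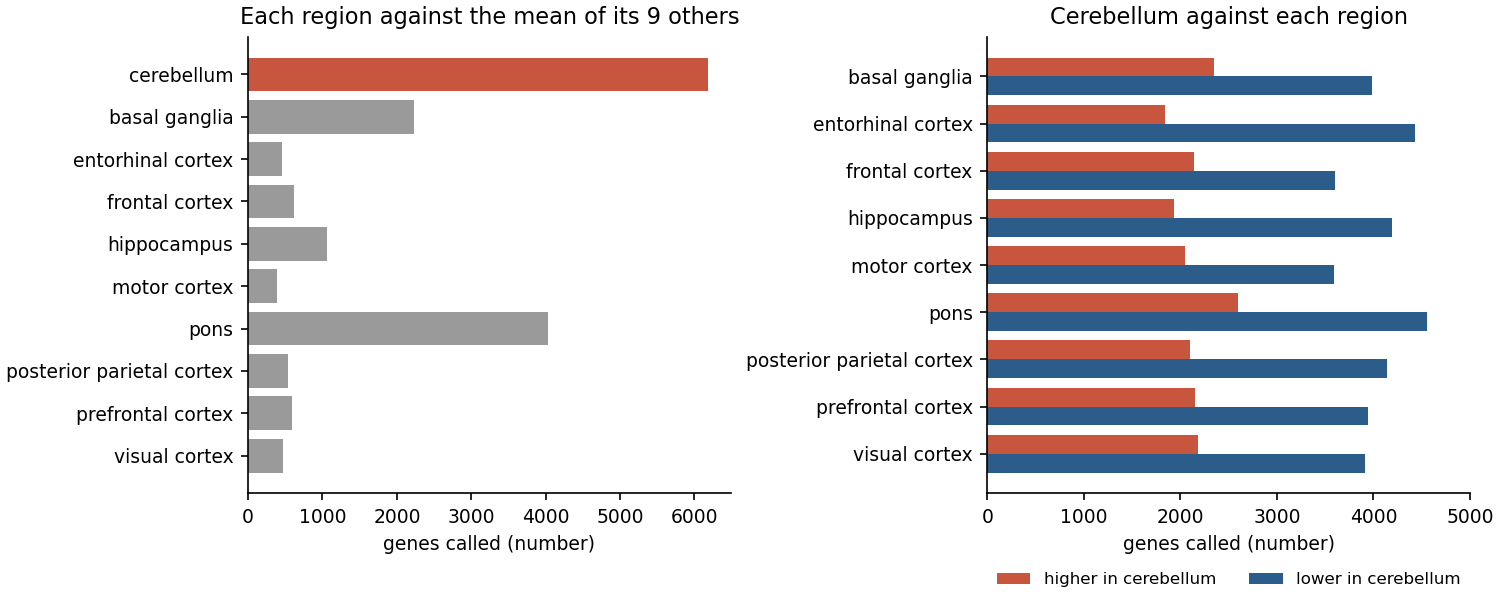
Number of genes called in each region against the mean of its 9 others (left, cerebellum in orange) and in cerebellum against each region (right, higher in orange, lower in blue). Cerebellum had 6177 calls, pons 4026 and the other regions at most 2229, and in all 9 single comparisons more genes were lower than higher in cerebellum.

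The label was checked against 4 markers of the cerebellum, which were high in each of the 5 libraries. GABRA6, the alpha 6 subunit of the GABA-A receptor found in granule cells, measured 338, 307, 317, 294 and 279 CPM in sheep 687, 688, 690, 694 and 699. Over the 45 other libraries it had a lowest of 0, a median of 0 and a highest of 11.5 CPM. It was undetected in 30 of the 45 libraries, and the highest was the entorhinal cortex of sheep 687. The ratio of mean CPM was 605. The fitted log2 fold change was 13.95 ± 0.60 (SE, edgeR adjusted p 1.47e-19), and it is larger than that ratio because it averages log means of regions that hold almost no counts, where its size depends on the prior count. The same holds for every gene below that is near 0 in some regions.

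NEUROD1, a transcription factor that granule cells keep throughout life, measured 258, 251, 236, 267 and 289.9 CPM in the cerebella, in the same order of animals. The other libraries had a lowest of 0, a median of 2.86 and a highest of 13.6 CPM, the highest in the hippocampus of sheep 694. The fit gave NEUROD1 a log2 fold change ± SE of 6.81 ± 0.25 (edgeR adjusted p 7.3e-25). CBLN1, a secreted organiser of the synapse between parallel fibre and Purkinje cell, measured 1176, 1073, 898, 1114 and 1158 CPM, against a lowest of 0.535, a median of 2.99 and a highest of 45.9 CPM elsewhere. PCP2, a G protein regulator of Purkinje cells, measured 115, 109, 101, 82.7 and 111 CPM, against a lowest of 0.452, a median of 0.981 and a highest of 7.31 CPM. For both, the groups did not overlap, and the highest other library was the entorhinal cortex of sheep 687. Log2 fold changes were 7.30 ± 0.45 for CBLN1 and 6.57 ± 0.21 for PCP2 (SE, edgeR adjusted p 2.34e-17 and 7.65e-27).

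**Figure D2:**
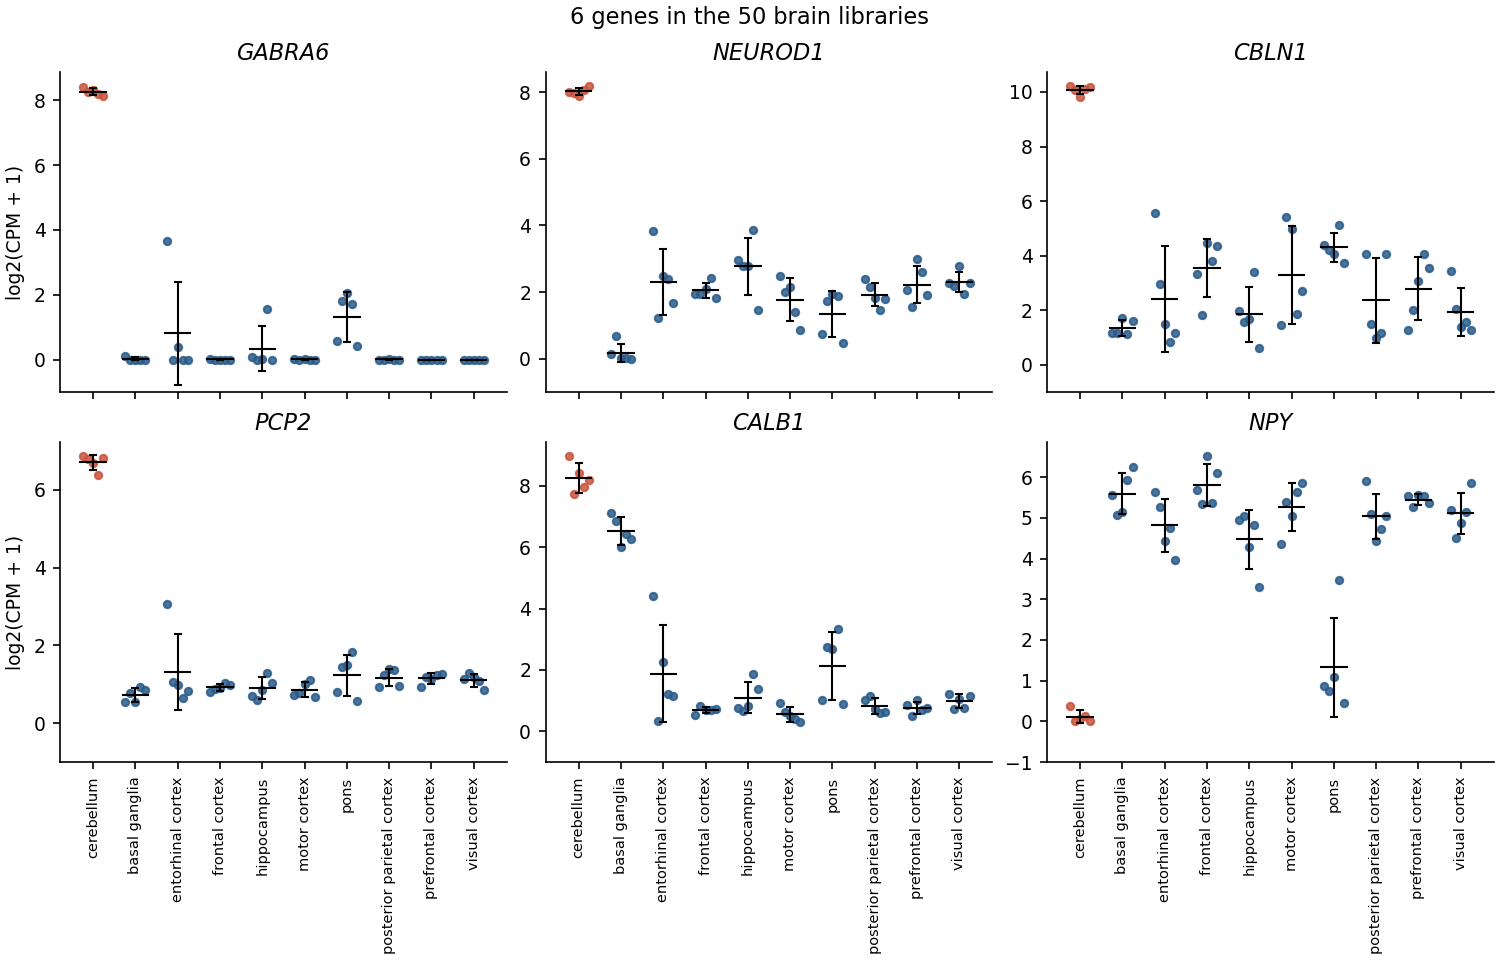
Level, as log2(CPM + 1), of 6 genes in each of the 50 brain libraries by region (points, cerebellum in orange; horizontal lines are means and bars SD over 5 libraries). GABRA6, NEUROD1, CBLN1 and PCP2 were high in cerebellum alone, CALB1 also in basal ganglia, and NPY was low in cerebellum and, less so, in pons.

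All 13 genes of a granule cell list were called higher, with a median log2 fold change of 6.81, and for 11 of them every cerebellum lay above every other library (6.82% of all tested genes did so). CBLN3, which forms complexes with CBLN1, measured 882, 854, 771, 867 and 865 CPM, against a lowest of 1.01, a median of 2.44 and a highest of 32.8 CPM in the other libraries. FAT2, a giant cadherin of parallel fibres, measured 542, 463, 529, 739.9 and 563 CPM, against a lowest of 0.12, a median of 0.326 and a highest of 27.3 CPM. Neither gene's groups came near each other, and log2 fold changes were 8.09 ± 0.24 and 9.48 ± 0.43 (SE, edgeR adjusted p 1.47e-27 and 1.81e-21). Among transcription factors, ZIC1 averaged 692 against 8.74 CPM, ZIC2 349.8 against 18.5 CPM, PAX6 116 against 15.9 CPM and ETV1 336 against 39.1 CPM. GRIN2C, the NMDA receptor subunit of mature granule cells, averaged 123 against 1.16 CPM. The weakest of the list was UNC13C, a priming factor of synaptic vesicles, at 185 against 113 CPM. Its log2 fold change ± SE of 1.04 ± 0.40 (edgeR adjusted p 0.0241) fell short of the threshold in 6 of 17 alternative fits, so it is a borderline member.

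Of 21 Purkinje cell genes, 20 were called higher and none lower, with a median log2 fold change of 2.56, and 15 did not overlap with the other libraries. CALB1, the calcium buffer calbindin, measured 504, 212, 338, 245 and 292 CPM in cerebellum. It also reached 95.3 ± 30.3 CPM (SD, n = 5) in basal ganglia, with a highest library of 137 CPM, while the median of the 45 others was 0.859 CPM. SKOR2, a corepressor of the Purkinje lineage, was low in absolute terms, at 7.54, 3.8, 4.3, 2.46 and 3.08 CPM, and was undetected in 38 of the 45 others. Other members of the list were strong elsewhere too. PCP4, a calmodulin regulator, averaged 641 ± 363 CPM in basal ganglia (SD, n = 5), above the cerebellar 192 ± 26 CPM. DNER, a Notch ligand, did not reach the fold threshold (263 against 167 CPM, log2 fold change 0.67 ± 0.17, SE). RORA, the nuclear receptor behind the staggerer mouse, was just past it at 1.01 and missed it in 7 alternative fits.

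The smaller cell classes of the cerebellum gave a mixed picture. In a list for interneurons and unipolar brush cells, 6 of 10 genes were called higher and 2 lower. TFAP2B, a transcription factor of molecular layer interneurons and their progenitors, averaged 31.4 against 0.62 CPM, and TFAP2A 9.05 against 0.534 CPM. EOMES, which marks unipolar brush cells, measured 32.4, 48.6, 36.2, 55.5 and 70.9 CPM, and the highest of the 45 others was the hippocampus of sheep 694 at 5.01 CPM. SLC6A5, the glycine transporter of Golgi cells, averaged 8.5 against 1.58 CPM, and pons reached 11.3 ± 14.3 CPM (SD, n = 5). GRM2 and LMX1A were the other genes called higher. NXPH1 (11.1 against 29.6 CPM) and SORCS3 (8.22 against 19.1 CPM) were called lower. KIT averaged 82.7 against 46.4 CPM and was not called, at a log2 fold change of 0.97.

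Of 9 tested genes of a Bergmann glia list, 3 were called higher and 1 lower, and 5 were not called. GRIA4, an AMPA receptor subunit, rose from 53.1 ± 15.5 to 164 ± 15.2 CPM (SD, n = 45 and 5) without overlap. TNC averaged 45.8 against 21.5 CPM and GDF10 29.1 against 15.5 CPM. HOPX, in contrast, was lower in every cerebellum than in any other library, at 37.9 against 169 CPM. SLC1A3, the glutamate transporter of Bergmann glia, was not called, at 988 against 1185 CPM. Several of these genes are also known from astrocytes or neurons of other regions.

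Genes of forebrain neurons were set against the same reference. In the forebrain interneuron list 11 of 11 genes were called lower (19.6% of all genes tested were), with a median log2 fold change of -7.57. Against the pons alone 5 were lower and 1 higher, at a median of -1.77. NPY, a peptide of cortical interneurons, measured 0.308, 0, 0.0324, 0.0976 and 0 CPM in the cerebella, against a lowest of 0.371, a median of 34.3 and a highest of 91.2 CPM in the others. The lowest of these others was a pons, and the groups came close without overlapping. The fit gave NPY a log2 fold change ± SE of -8.33 ± 0.74 (edgeR adjusted p 9.91e-13). SST averaged 0.742 against 151 CPM and VIP 0.0479 against 28.4 CPM. DLX6 had 0 counts in all 5 cerebella and 5.46 ± 6.75 CPM (SD, n = 45) elsewhere, which made it at least 485-fold lower against a floor of 3 counts over the 5 libraries.

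In the cortical projection neuron list, 9 of 12 genes were called lower and 1 higher. Against the pons alone 3 were lower and 3 higher, and the summed level was 37.4 to 299 CPM in pons, below the 554 to 682 CPM of the cerebella, so low levels of this list were shared with the pons. CAMK2A, the calcium-dependent kinase of forebrain excitatory neurons, measured 117, 84.2, 88.1, 58.4 and 69.3 CPM in cerebellum, against a lowest of 11.5, a median of 2235 and a highest of 3683 CPM in the others. NRGN, a calmodulin-binding postsynaptic protein, averaged 8.45 against 887 CPM, and BCL11B, a factor of deep-layer and striatal neurons, 0.216 against 39.2 CPM. FEZF2 averaged 0.0101 against 11.3 CPM. The exception was NEUROD2, called higher at 111 against 39.5 CPM. SLC17A7, the vesicular glutamate transporter shared by granule cells and cortical neurons, averaged 387 against 399 CPM and was not called. Of 10 striatal genes, 6 were lower and 2 higher, with a median log2 fold change of -6.67 against basal ganglia, where 10 of 10 were lower. Against the 8 other regions the median was -0.72 to 0.20, with 2 to 4 genes higher and 2 to 4 lower. The summed level in cerebellum, 258 to 514 CPM, lay above every library of those 8 (57.1 to 228 CPM). The 2 were PENK and RGS9, which averaged 946 ± 326 and 106 ± 37.8 CPM (SD, n = 5) in basal ganglia, far above the cerebellum at 151 ± 101 and 27.1 ± 1.99 CPM, and lay below the cerebellum in the 8 other regions. Their calls were lost when the 9 regions were summed per sheep (log2 fold changes of 0.28 and 0.64). Of 8 tested brainstem genes, 5 were lower and none higher. Their summed level in cerebellum was only 0.927 to 1.38 CPM. Against the pons alone 8 of 8 were lower, against basal ganglia 6 and against each of the remaining regions 2 to 4. Members can have passed the low-count filter only through other regions, so no conclusion is drawn from the 5.

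All 10 microglia genes were called lower, with a median log2 fold change of -2.19, and 9 of them lay below all 45 other libraries (5.24% of all genes tested did so). CX3CR1, the fractalkine receptor, measured 7.58, 11.8, 10.3, 8.84 and 3.69 CPM in cerebellum, against a lowest of 15.3, a median of 40.6 and a highest of 94 CPM in the others. P2RY12, a purinergic receptor of resting microglia, measured 8.38, 14.5, 10.8, 8.49 and 5.94 CPM, against a lowest of 19.2, a median of 46.6 and a highest of 115 CPM. Log2 fold changes were -2.26 ± 0.28 and -2.39 ± 0.29 (SE, edgeR adjusted p 4.16e-09 and 3.3e-09). The summed level of the 10 genes was 41.6 to 111 CPM in cerebellum and 160 to 663 CPM elsewhere. The exception to the separation was TREM2, whose highest cerebellum, at 6.47 CPM in sheep 688, lay above the lowest other library at 5.73 CPM.

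Of 12 oligodendrocyte genes, 7 were called lower and none higher. The pons held the most, with 21192 to 106310 CPM summed over the list, against 1569 to 9051 CPM in cerebellum and 1686 to 38606 CPM in the 8 others. Without the pons 3 genes of the list were called lower, and MOG lost its call at a log2 fold change of -0.91; with the 9 regions summed per sheep, all 12 were. OPALIN was the most reduced gene of the list (39.4 against 224 CPM), and MBP, a main myelin protein, was not called. Of 8 astrocyte genes, 2 were lower, close to the 19.6% of all tested genes. SLC1A2, the main glutamate transporter of forebrain astrocytes, measured 102, 126, 189.8, 96.5 and 99.2 CPM against a lowest of 197, a median of 2149 and a highest of 5287 CPM, with no overlap and a log2 fold change ± SE of -4.08 ± 0.33 (edgeR adjusted p 1.01e-13). AQP4 averaged 288 against 828 CPM, and GFAP, at 3630 against 4125 CPM, was not called. Of 10 endothelial and mural genes 8 were lower, VWF in all 5 cerebella below all other libraries (18.4 against 68.5 CPM). Of 5 tested genes of meningeal fibroblasts, 1 was higher and 2 lower, beside 9.63% and 19.6% of all genes tested. The part of these marker levels in the fold changes of other genes was not tested.

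**Figure D3:**
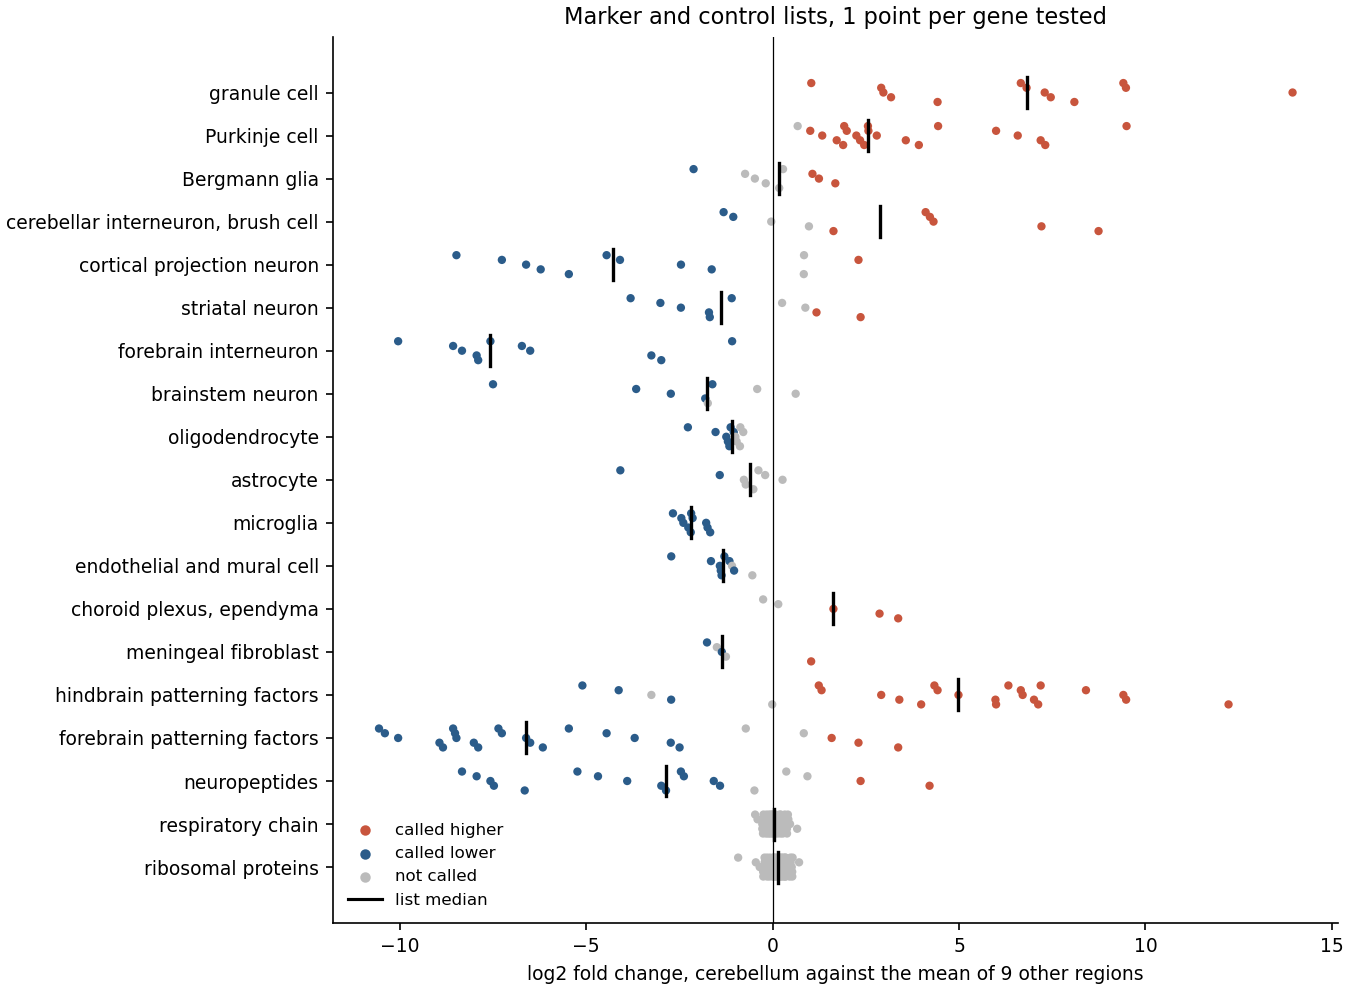
Log2 fold change of cerebellum against the mean of 9 other regions for each gene tested in 19 lists (orange, called higher; blue, called lower; grey, not called; black bar, median of the list). Granule and Purkinje cell genes and hindbrain factors lie to the right, forebrain factors, forebrain interneuron genes and microglia genes to the left, and respiratory chain and ribosomal protein genes close to 0.

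GABA-A receptors are pentamers whose subunits set their affinity and place in the membrane. Of 16 tested subunit genes, 3 were called higher and 6 lower. GABRD, the delta subunit, which joins alpha 6 in extrasynaptic receptors of granule cells, measured 252, 252, 169.8, 271 and 259.7 CPM in cerebellum. The 45 others had a lowest of 0.976, a median of 26.8 and a highest of 124 CPM, so that the groups did not overlap, and the log2 fold change was 3.47 ± 0.27 (SE, edgeR adjusted p 2.39e-14). GABRA5, an extrasynaptic subunit of hippocampus and cortex, measured 1.04, 0.18, 0.357, 0.391 and 0.525 CPM, against a lowest of 1.07, a median of 61.9 and a highest of 138 CPM. GABRA3 averaged 8.57 against 71.3 CPM, and GABRQ 0.271 against 4.31 CPM. GABRA5, GABRA3 and GABRQ were below all other libraries in every cerebellum.

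Among 18 ionotropic glutamate receptor genes, 5 were called higher and 5 lower. NMDA receptor subunits moved in both directions. GRIN2C measured 141, 109, 101, 149.6 and 117 CPM, against a lowest of 0.159, a median of 0.482 and a highest of 6.09 CPM elsewhere, with a log2 fold change ± SE of 7.46 ± 0.23 (edgeR adjusted p 1.47e-27). GRIN2B, the subunit of forebrain synapses, averaged 20.9 against 222 CPM, with a log2 fold change ± SE of -3.15 ± 0.26 (edgeR adjusted p 2.14e-13). Of the 9 regions, only the pons overlapped with the cerebellum for GRIN2B, at 23.1 ± 14.9 CPM (SD, n = 5). Of AMPA receptor subunits, GRIA4 was higher and GRIA3 lower (33.9 against 123 CPM). GRID1 averaged 18.9 against 32.3 CPM and was not called.

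Of 7 tested metabotropic glutamate receptor genes, 3 were called higher and 3 lower. GRM4, the presynaptic receptor of parallel fibres, measured 413, 411, 351, 379.8 and 428 CPM. The others had a lowest of 2.33, a median of 11 and a highest of 64.7 CPM, the highest in basal ganglia. Its log2 fold change was 5.12 ± 0.21 (SE, edgeR adjusted p 8.07e-23). GRM5, a receptor of forebrain synapses, averaged 39.5 against 116 CPM and was lower. GRM7 was below all other libraries, at 7.43 against 35.9 CPM. Of 7 glycine receptor and transport genes 1 was higher and 2 lower, beside 9.63% and 19.6% of all genes tested. Of the lower ones GLRA2 did not overlap (1.24 against 13.9 CPM).

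The cerebellins, the C1q-like proteins and their receptors form bridges across synapses. Of 15 tested genes of these families, 5 were called higher, each without overlap, and 7 lower. CBLN1 and CBLN3 rose, as given above, while CBLN2, the forebrain family member, measured 0.41, 0.229, 0.195, 0.228 and 0.186 CPM in cerebellum, against a lowest of 2.63, a median of 56.4 and a highest of 134 CPM in the others. The fit gave CBLN2 a log2 fold change ± SE of -7.47 ± 0.53 (edgeR adjusted p 1.56e-15). CBLN4 averaged 4.4 against 11.9 CPM and lost its call in 4 alternative fits. On the presynaptic side, NRXN2 averaged 630.1 against 233 CPM and NRXN3 300.0 against 106 CPM, both higher. The C1q-like genes C1QL1 (5.22 against 13.2 CPM), C1QL2 (1.39 against 11 CPM) and C1QL3 (0.765 against 16.6 CPM) were lower. C1QL1 is the climbing fibre ligand of ADGRB3 and is made by neurons of the inferior olive, which is not among the regions sampled. ADGRB3 averaged 65.9 against 68.7 CPM and was not called.

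**Figure D4:**
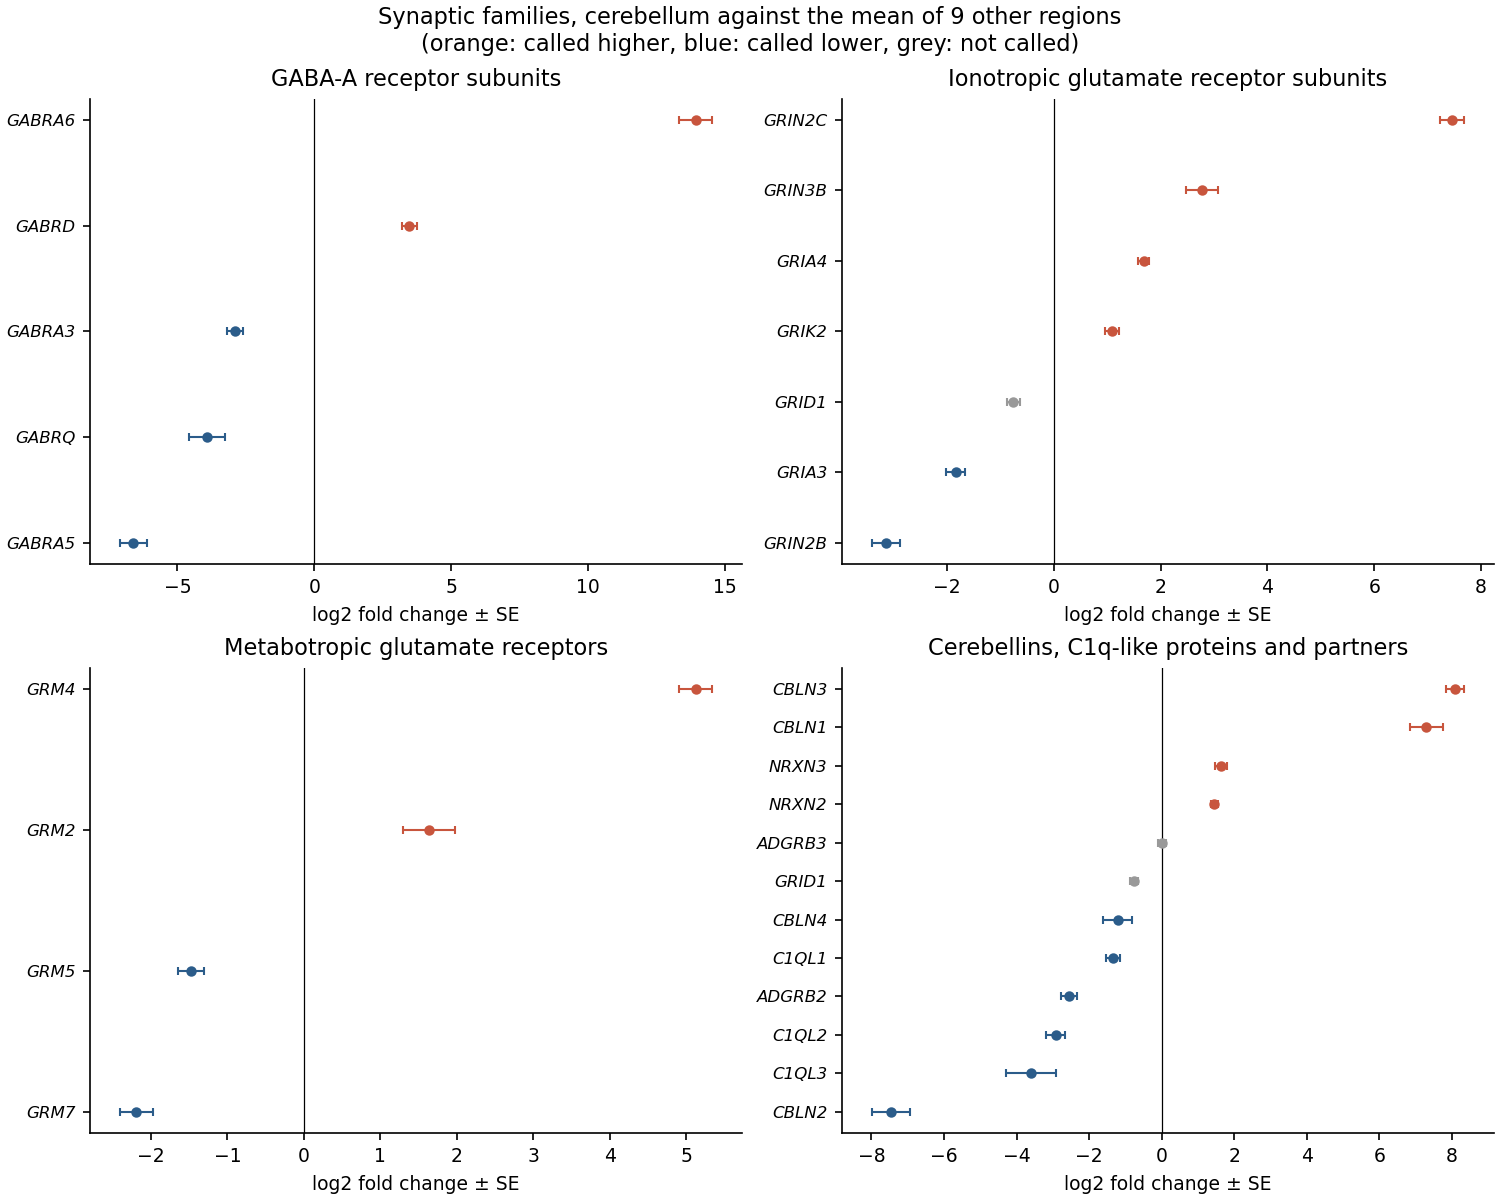
Log2 fold change with SE of selected members of 4 synaptic gene families, cerebellum against the mean of 9 other regions (orange, called higher; blue, called lower; grey, not called). Each family shows members called in both directions, led by GABRA6, GRIN2C, GRM4 and CBLN3 at the top and GABRA5, GRIN2B, GRM7 and CBLN2 at the bottom.

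Transporters and enzymes define which transmitter a neuron releases. Of 13 such genes, 1 was called higher and 7 lower. SLC32A1 averaged 47.7 against 50.2 CPM and GAD2 117 against 156 CPM, both without a call. SLC17A6, the vesicular glutamate transporter of thalamus and brainstem, averaged 4.11 against 24.1 CPM and was lower. SLC6A11, a GABA transporter of astrocytes, was below all other libraries, at 26 against 94.5 CPM.

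Purkinje cells turn glutamate into calcium release in a pathway that includes PLCB4 and ITPR1. Both genes were called higher without overlap. ITPR1, the inositol trisphosphate receptor of the calcium store, measured 762, 352, 545, 370.1 and 429 CPM, against a lowest of 37.2, a median of 96 and a highest of 298 CPM. Its log2 fold change was 2.35 ± 0.19 (SE, edgeR adjusted p 5.92e-14). PLCB4 averaged 122 against 36 CPM and CA8, which binds ITPR1, 471 against 48.4 CPM. The relatives ITPR2 (23 against 56.4 CPM) and ITPR3 (2.02 against 7.09 CPM) were lower. Of the ryanodine receptors, RYR2 was higher (174 against 88.9 CPM) and RYR3 lower (1.57 against 21.8 CPM). In all, 10 of 27 calcium and cyclic GMP genes were called higher and 4 lower, beside 9.63% and 19.6% of all genes tested. The cyclic GMP genes GUCY1A1, GUCY1B1, PRKG1 and NOS1 had log2 fold changes of -0.56, -0.72, 0.20 and -0.92 and were not called.

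Potassium channel genes split almost evenly, with 13 of 35 higher and 12 lower, beside 9.63% and 19.6% of all genes tested. KCNC1, a channel that lets neurons fire fast, averaged 198 against 38.9 CPM, higher without overlap, whereas its relative KCNC2 measured 3.63, 6.81, 5.09, 2.18 and 1.84 CPM, against a lowest of 7.69, a median of 126 and a highest of 190.4 CPM. KCNC2 had a log2 fold change ± SE of -4.54 ± 0.33 (edgeR adjusted p 5.35e-15). KCNK9 and KCNK3, leak channels of granule cells, averaged 89.2 against 15.3 CPM and 13.3 against 2.36 CPM, and KCNK1 198 against 46.1 CPM. KCND2, an A-type channel, averaged 130.3 against 34.6 CPM, and the sodium-activated KCNT1 119.7 against 38 CPM. In the KCNQ family, KCNQ5 (2.85 against 61 CPM) and KCNQ3 (53.8 against 225 CPM) were lower. Of 22 sodium and calcium channel genes, 6 were higher and 4 lower, the lower ones close to the share of all genes tested. CACNA1A, the P/Q-type channel of Purkinje cells, averaged 239.5 against 77.9 CPM. Its accessory subunit gene CACNA2D2 was higher at 48 against 17.1 CPM, and CACNA2D3 lower at 1.53 against 30.8 CPM.

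Transcription factors that pattern the embryonic brain differed widely between cerebellum and the rest. Of 25 tested hindbrain factors, 20 were called higher and 3 lower, 12 of the 25 with all cerebella above all others. Against the pons alone 14 were higher and 6 lower. EN2, an engrailed gene of the midbrain-hindbrain border, measured 172, 143, 129, 156 and 155 CPM. Of the other libraries, 23 had no counts of EN2, the median was 0 and the highest, the pons of sheep 694, had 26.3 CPM. The ratio of means was 169.6 and the log2 fold change 12.23 ± 0.48 (SE, edgeR adjusted p 9.28e-24). ZIC4, next to ZIC1 in a shared deletion interval of Dandy-Walker malformation, averaged 156 against 1.47 CPM, BARHL2 60.7 against 0.227 CPM, LHX1 28.8 against 0.39 CPM, PAX2 8.53 against 0.251 CPM and MEIS1 77.5 against 10.1 CPM. IRX3 and IRX2 were called higher at 5.24 against 0.659 CPM and 3.66 against 1.49 CPM, but pons held 5.72 ± 1.22 and 12.4 ± 9.26 CPM (SD, n = 5). The 3 lower ones were PAX5 (0.223 against 4.66 CPM), PAX8 (0.102 against 3.76 CPM) and GBX2 (0.0568 against 0.609 CPM), all at under 1 CPM in cerebellum.

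Of 25 forebrain factors, 20 were called lower and 3 higher. Against the pons alone 12 were lower, at a median log2 fold change of -1.11, while the median against each of the 8 others was -8.20 to -6.84. The summed level in pons, 88.5 to 176 CPM, lay below that of the cerebella, 230 to 280 CPM. EMX2 averaged 0.00684 against 16.3 CPM and EMX1 0.0165 against 6.7 CPM. SP9 had 0 counts in the 5 cerebella and 4.32 ± 2.67 CPM (SD, n = 45) elsewhere, at least 384-fold lower against the same floor. The 3 higher genes were NEUROD2, BHLHE22 (50.4 against 30.6 CPM) and OTX2. OTX2 measured 34 CPM in sheep 694 and 0.513 to 4.56 CPM in the other cerebella, and it also stands in the choroid plexus list below. HOX genes, which pattern the body axis behind the cerebellum, were at or near 0. Of the 38 listed, 5 passed the filter, of which HOXB2 and HOXB4 were lower and 1 was higher.

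Hedgehog signalling drives granule cell precursors to divide before birth and after it. In these samples SHH itself was called lower from very low levels, at 0.179 against 0.491 CPM (log2 fold change -1.13 ± 0.50, SE, edgeR adjusted p 0.0478), and lost the call in 9 of 17 alternative fits. The receptor PTCH1, itself a target of the pathway, measured 105, 79.1, 95.2, 97.7 and 76.8 CPM, against a lowest of 16.6, a median of 37.8 and a highest of 70.9 CPM. PTCH1 had a log2 fold change ± SE of 1.27 ± 0.12 (edgeR adjusted p 8.69e-12), without overlap. GLI1, the other common target, averaged 2.9 against 1.18 CPM, and the co-receptor CDON 28.1 against 7.07 CPM, both higher. GLI2, GLI3, HHIP and GAS1 were lower, and in all 3 of 12 genes were higher and 5 lower, beside 9.63% and 19.6% of all genes tested.

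Of 32 genes in which mutations cause ataxia, a loss of coordination, 12 were called higher and 3 lower, 10 of the 32 with every cerebellum above all other libraries. FGF14, which anchors sodium channels, averaged 77.2 against 37.1 CPM, and KCND3 122 against 50.5 CPM. Of the lower ones, PPP2R2B, a phosphatase subunit, measured 24.7, 26.3, 27.9, 26.2 and 28.4 CPM, against a lowest of 84.4, a median of 145 and a highest of 194 CPM. The groups did not overlap, with a log2 fold change ± SE of -2.41 ± 0.12 (edgeR adjusted p 2.58e-20). CCDC88C averaged 2.88 against 19.8 CPM and PDYN 1.41 against 54.4 CPM. ATXN1 averaged 75 against 115 CPM and was among the 17 without a call. All of the higher genes except FGF14 also stand in the Purkinje, granule or channel lists above.

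Neuropeptide genes were mostly low, with 14 of 19 tested lower and 2, PENK and TRH, higher. TRH, thyrotropin-releasing hormone, measured 20.2, 22.5, 14.7, 17.5 and 24.9 CPM, against a lowest of 0.0475, a median of 0.611 and a highest of 26.8 CPM. CRH averaged 0.0203 against 5.79 CPM and was below all other libraries. Of 14 immediate early genes, which neurons switch on with activity, 6 were lower and none higher. EGR3 averaged 0.876 against 40.7 CPM, EGR2 0.247 against 6.46 CPM and ARC 0.341 against 21.9 CPM, while FOS (25.8 against 44.2 CPM) and NPAS4 (6.34 against 5.78 CPM) were not called.

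Of 17 clock genes, 4 were called higher and 1, RORB, lower, beside 9.63% and 19.6% of all genes tested. PER2 measured 31.7, 32.8, 33.7, 48.4 and 39.5 CPM, against a lowest of 7.61, a median of 15.7 and a highest of 23.5 CPM, and CRY1 33.1, 26.5, 28.4, 30.3 and 25.3 CPM, against a lowest of 6.12, a median of 10.7 and a highest of 18.7 CPM. Both lay above all other libraries, with log2 fold changes of 1.32 ± 0.10 and 1.37 ± 0.11 (SE, edgeR adjusted p 3.61e-14 and 2.48e-13). The count of 4 dropped to 2 without the pons. NR1D1 averaged 41.8 against 20.6 CPM, and its log2 fold change of 1.04 slipped to 0.96 to 1.00 in 5 alternative fits. All 10 regions of a sheep share a time of death, so these differences are within animals. The part of the hour of death in them was not tested. Of 25 tested genes of the steroid and reproductive axis, the theme of the series, 1 was higher and 9 lower, beside those same shares of all genes. HSD17B1, which makes oestradiol, measured 2.56, 3.54, 2.69, 2.62 and 3.81 CPM, against a lowest of 0.305, a median of 0.605 and a highest of 1.54 CPM. NR3C1, the glucocorticoid receptor, averaged 94.5 against 57.3 CPM and ESR1 2.07 against 4.56 CPM, both without a call.

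Genes of basic functions, most of them used in many cell types, were also listed. None of 59 nuclear respiratory chain and ATP synthase genes and none of 77 tested ribosomal protein genes was called in edgeR, DESeq2 or limma voom. Their median log2 fold changes were 0.04 and 0.14. TMM factors centre the bulk of genes near 0, so these medians are no independent baseline. In edgeR 11 of the 59 and 23 of the 77 had an unadjusted p under 0.05, at changes below the fold threshold. Of all genes tested, 67.1% had an unadjusted edgeR p under 0.05. In contrast, of 33 tested entries with the prefix KEF53, to which the files pair no symbol, 23 were called lower and none higher. They include the entries with the largest fall in CPM, KEF53_p07, KEF53_p04 and KEF53_p01. KEF53_p07 measured 10125, 13416, 12295, 7269 and 11286 CPM, against a lowest of 9528, a median of 22382 and a highest of 49661 CPM, so the groups overlapped, with a log2 fold change ± SE of -1.09 ± 0.23 (edgeR adjusted p 8.03e-05). It and KEF53_p04 reached -0.97 each without sheep 694. The TMM-adjusted CPM of the KEF53 entries, summed and written as a percent, came to 6.52 to 12.0% in a cerebellum and 9.30 to 38.7% in the other libraries. The ranges overlapped in hippocampus (9.30 to 23.1%), motor cortex (11.4 to 26.4%) and entorhinal cortex (11.6 to 19.9%). TMM factors rescale these values, so they are not exact shares of a library's counts.

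Several of the genes named for the largest fold belong to none of these groups. UNC45B, a chaperone known from muscle myosin, measured 55.9, 90.5, 72.5, 57.2 and 76.4 CPM, against a lowest of 0, a median of 0.109 and a highest of 1.9 CPM. CRTAM, an adhesion molecule first known from T cells, averaged 33.4 against 0.195 CPM, and SERPINA1, a secreted protease inhibitor, 16.3 against 0.0447 CPM. SERPINA1 ranged from 6.52 CPM in sheep 699 to 26.8 CPM in sheep 694. The homeobox gene UNCX averaged 17.4 against 0.159 CPM, PAX3 15.4 against 0.354 CPM and SKOR1 10.1 against 0.0752 CPM. Among the lower ones, SLIT1, an axon guidance ligand, averaged 0.456 against 59.4 CPM, ENC1 5.99 against 465 CPM, CAMKV 3.2 against 194 CPM, FAM163B 1.24 against 92.7 CPM, RPRML 0.0735 against 24.1 CPM, CPNE4 0.161 against 23.5 CPM and KCNG1, a silent potassium channel subunit, 0.155 against 26.7 CPM. The rule that named these genes required groups that do not overlap.

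By difference in CPM the leading named genes were SNAP25, COL27A1 and ALDOC. COL27A1, a fibrillar collagen chain, measured 1260, 1035, 985, 1310 and 1108 CPM, against a lowest of 9.07, a median of 16.4 and a highest of 57.9 CPM. Its log2 fold change was 5.92 ± 0.15 (SE, edgeR adjusted p 4.04e-29). SNAP25, a SNARE protein of synaptic vesicle fusion, measured 2708, 2376, 2331, 2241 and 2365 CPM, against a lowest of 151, a median of 1094 and a highest of 2020 CPM, and was called against 4 of the 9 regions taken singly. STX1A, its partner in the SNARE complex, went the other way. STX1A measured 0.975, 0.475, 0.324, 0.635 and 0.643 CPM in cerebellum, against a lowest of 1.73, a median of 94.2 and a highest of 188 CPM, with a log2 fold change ± SE of -6.50 ± 0.43 (edgeR adjusted p 2.12e-16). ALDOC, the zebrin II antigen of Purkinje cell stripes, averaged 1857 against 754 CPM.

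Spread within a region was taken over the genes at 10 CPM or more in that region, so the gene sets differ. The median SD of log2(CPM + 1) was 0.148 over 9995 genes in cerebellum, and it was 0.212 to 0.281 over 10121 to 10272 genes in the 9 other regions. In cerebellum 24 genes had an SD of at least 1, against 28 to 223 in the others. These differences in spread were not tested.

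Among the 5 cerebella, genes of some lists tended to be highest in the same animal. Other lists did not: of 13 granule cell genes, 4, 0, 1, 5 and 3 were highest in sheep 687, 688, 690, 694 and 699. The share of all genes highest in each animal is not given here. Sheep 687 had the highest value of 16 of the 21 Purkinje genes, for example 504 CPM of CALB1 and 788 CPM of CA8, where the 4 other cerebella had 212 to 338 and 290 to 559 CPM. Sheep 694 had the lowest value of 12 of the 21. High values in sheep 687 were not particular to the Purkinje list. It was also highest for 18 of 35 potassium channel genes (lowest for 4) and 14 of 22 sodium and calcium channel genes (lowest for 0). For ribosomal protein genes it was lowest for 62 of 77. Sheep 688 had the highest value of all 10 microglia genes, 10 of 12 oligodendrocyte genes and 65 of 77 ribosomal protein genes, and sheep 699 the lowest of 10 and 11 of the first 2 lists. MBP ran from 729 CPM in sheep 699 to 5501 CPM in sheep 688. Granule cell scores, the mean of log2(CPM + 1), stayed between 7.92 and 8.11. Immediate early genes peaked in sheep 687, with 12 of 14 genes, and 10 of 14 were lowest in sheep 690.

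TTR, the transthyretin of the choroid plexus, had the largest SD of log2(CPM + 1) among the 9995 genes of the cerebellum, at 1.88, 12, 621, 948 and 68.4 CPM. It was called higher at a log2 fold change ± SE of 2.87 ± 0.91 (edgeR adjusted p 0.00635). Of 5 tested genes of choroid plexus and ependyma, 3 were called higher and none lower, and all 5 were highest in sheep 694. Against hippocampus alone, and against pons alone, 0 were higher and 1 lower. Against the remaining regions 1 to 4 were higher and 0 lower. The median summed level was 73.1 CPM in cerebellum, 204 CPM in hippocampus (highest 1508 CPM) and 190 CPM in entorhinal cortex. In the remaining regions it was 3.23 to 48.4 CPM. The summed level of the 5 tested genes was 4.79 CPM in sheep 687 and 999 CPM in sheep 694, OTX2 measured 34 CPM in sheep 694 and 0.513 to 4.56 CPM in the others, CLIC6 0.0513, 0.147, 2.71, 3.16 and 0.355 CPM and KL 0.222, 0.147, 8.52, 11.3 and 0.965 CPM. Without the cerebella of sheep 690 and 694, TTR dropped to a log2 fold change of -0.09, with 0.963 as its edgeR adjusted p, and CLIC6 -0.51, and KL, not called with all 5, reached -2.02. Without sheep 690 alone TTR had 1.38, and neither TTR nor CLIC6 was called without sheep 690 or without sheep 694. EN1, the second engrailed gene, was low in 1 animal, at 8.45, 11.9, 13.1, 0.146 and 19.4 CPM, and ONECUT1 measured 17.4, 17.8, 11.8, 1.3 and 25.5 CPM. Both were lowest in sheep 694.

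**Figure D5:**
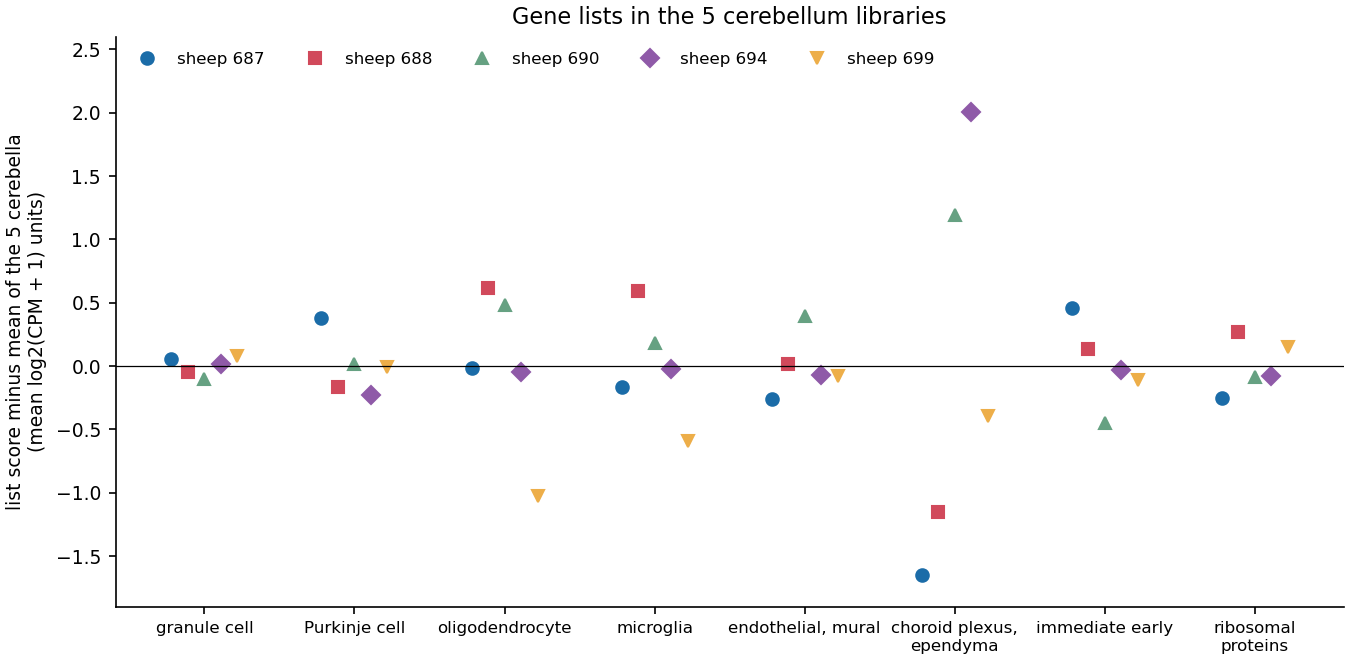
Score of 8 gene lists in each of the 5 cerebellum libraries, as the mean of log2(CPM + 1) minus the mean of the 5 cerebella (1 symbol per sheep). Purkinje genes are highest in sheep 687, oligodendrocyte and microglia genes highest in 688 and lowest in 699, and choroid plexus genes spread most.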

How the data were processed

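Polyadenylated RNA (Kapa stranded mRNA kit, paired 150 bp reads) was trimmed with Trimmomatic 0.39, aligned with STAR 2.7.5a to the sheep assembly ARS-UI_Ramb_v3.0 and counted per gene with Rsubread 2.20.0 by the authors, per the series' design text. The deposited table holds raw counts per gene. Neither strand nor multimapping settings are stated there, so antisense and near-identical genes are uncertain. No sheep gene lengths or sequences were used here.

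From the counts, 4 entries were removed before totals, genes with low counts were filtered by region (filterByExpr), TMM factors were computed, and all 50 libraries were fitted in edgeR 4.0.16 (R 4.3.3) with region and animal terms, a prior count of 0.125 and Benjamini-Hochberg adjustment over 21144 genes of 31304. limma 3.58.1 and DESeq2 1.42.0 were alternatives. The script was tested on simulated data. The animal block rests on the titles, which give the 10 regions of a sheep 1 number. Deviations from region means were correlated between each cerebellum and the libraries of other regions. Medians were 0.062 to 0.394 within a sheep, with single values down to -0.221 (sheep 688). Between sheep medians were -0.090 to -0.022. Centring on region means itself pushes these below 0, so the contrast is partly fixed in advance. Named were 4 markers, in each direction the 12 calls of greatest fold at 10 CPM or more, without overlap and with a symbol, the 3 calls of greatest CPM difference, and list members. The members and lists were chosen with earlier results of these data known. Each animal gave 1 library per region. Some genes are not reported here.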

Additional observations from a re-analysis of the deposited data

Results flagged for a closer look

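For 18 of 202 named genes with values in the 5 cerebella, and for 2 of 34 list scores, 1 animal stood far from the other 4, with a gap to the nearest of more than 0.71 of the whole range (Dixon's 95% value for 5 samples). Chance alone flags about 5% of sets of 5 independent, normally distributed values. COL6A3 and DDN, both flagged, were among genes chosen after their values had been seen. VIP and EMX2, also flagged, were undetected in the other 4 cerebella, and some lists share genes. The 18 genes and 2 list scores therefore cannot be set against that 5%, and no conclusion is drawn from their number. Sheep 687 was the distant animal for 8 of the 18 genes, sheep 690 and 694 for 4 each, sheep 688 for 2 and sheep 699 for none.

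In sheep 687 the value was the highest of the 5 in each case. It had 2708 CPM of SNAP25 against 2241 to 2376 in the others, 164 CPM of CACNA1G, a T-type calcium channel, against 68.1 to 94.6, 60.6 CPM of TNC against 40.7 to 44.6, and 9.47 CPM of PAX2 against 8.14 to 8.5. Other genes flagged there were near 0. CBLN2 measured 0.41 CPM against 0.186 to 0.229, DDN 2.21 against 0.152 to 0.423, VIP 0.239 against 0 and EMX2 0.0342 (2 counts over the 5 cerebella) against 0. The forebrain factor list, which holds EMX2, was not flagged and scored 1.32 in sheep 687 against 1.25 to 1.42, in units of mean log2(CPM + 1). The forebrain interneuron list scored 1.17 in sheep 687 against 0.854 to 0.902, in units of mean log2(CPM + 1). In the same units, the steroid and reproductive axis list scored 1.64 there against 1.71 to 1.73.

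Sheep 690 was lowest for CBLN3, at 771 CPM against 854 to 882, and for GABRD, at 170 against 252 to 271. It was highest for VWF, an endothelial protein, at 25.2 CPM against 15.1 to 17.7, and for GRM5, at 52.1 against 34.9 to 39.4. Sheep 694 was highest for OTX2, at 34 CPM against 0.513 to 4.56, for COL6A3, at 153 against 27.7 to 41.8, and for SLC17A6, at 13.7 against 0.547 to 3.37. It was lowest for KEF53_p04, at 6786 CPM against 10531 to 12044. Sheep 688 was lowest for RYR2, at 138 CPM against 178 to 188, and for SHH, at 0.0655 against 0.186 to 0.228.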

How the results depend on the processing

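The count of 6177 called genes ranged from 5858 to 6834 over other size factors (6180 and 6259 with relative log expression and upper quartile factors), retention of the 4 abundant entries (6177), limma voom (6102), DESeq2 (6293), a reference without the pons (6174), regions summed per sheep (6834 of 22258 genes), omission of the cerebella of sheep 690 and 694 (5858), and a prior count of 2 (5860). It was 7024 of 28848 genes with no filter on low counts and 5857 to 6189 with 1 animal left out (1982 to 2084 higher, 3773 to 4158 lower). Without the replicate block on the animal number it was 6100. The pairing comes from shared animals, and without the block RORA (0.99) lost its call, NOS1 (-1.03) gained one, and 1 meningeal gene in place of 2 was called lower. Thresholds moved it most, by construction: adjusted p alone gave 13506 genes (6553 higher, 6953 lower), and a fold threshold of 2 on the log2 scale gave 2290 (652 higher, 1638 lower).

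Against single regions, leaving out 1 animal gave 6019 to 6339 calls for basal ganglia, 5907 to 6332 for entorhinal, 5354 to 5600 for frontal, 5242 to 5592 for motor, 5686 to 6301 for posterior parietal, 5659 to 6007 for prefrontal and 5704 to 5949 for visual cortex, 5617 to 6086 for hippocampus and 6793 to 6964 for pons. Other regions against their own 9 others gave 190 to 733 for entorhinal, 419 to 703 for frontal, 218 to 542 for motor, 362 to 583 for posterior parietal, 362 to 661 for prefrontal and 316 to 573 for visual cortex, 673 to 1300 for hippocampus, 2033 to 2324 for basal ganglia and 3709 to 4329 for pons. The moves past 1.5 times were entorhinal cortex without sheep 688 (733), 694 (248) and 699 (190), hippocampus without 688 (673), motor cortex without 688 (257) and 690 (218), and prefrontal cortex without 690 (362). With limma voom, entorhinal cortex had 245 and motor cortex 241. The cause was not tested.

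Of 205 genes followed by name, 179 were called, and 157 were called under all 17 alternative fits. Without the cerebella of sheep 690 and 694, the log2 fold change of TTR turned to -0.09, CLIC6 to -0.51 and KL to -2.02. With regions summed per sheep, KLK6, a protease that was called higher, turned to -0.36. Depth limits the genes near 0 in a group, whose fitted folds depend on the prior count. The omissions of 2 libraries and the prior count of 2 were chosen after seeing the data.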

Other observations

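The genes here were chosen after their values had been seen. Among proteins of vesicle fusion, STX1A fell while STX3 averaged 135 against 50.5 CPM and was called higher without overlap (log2 fold change 1.42). The synaptotagmins SYT9 (96.7 against 4.32 CPM) and SYT4 (336 against 88.2 CPM) were higher without overlap, while SYT1, the main calcium sensor of fast release, averaged 879 against 687 CPM and was not called.

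CDH15, a cadherin named for muscle, measured 107, 65.4, 60.4, 109 and 70.0 CPM, against a lowest of 0.0800, a median of 0.302 and a highest of 3.00 CPM elsewhere, with a log2 fold change ± SE of 7.46 ± 0.26 (edgeR adjusted p 2.95e-25). CDH7 averaged 93.4 against 18.9 CPM. Among collagens, COL9A3 averaged 40.4 against 16.3 CPM, and COL6A3 measured 33.5, 41.8, 27.7, 153 and 33.6 CPM, against a lowest of 0.861, a median of 4.57 and a highest of 39.7 CPM, with sheep 694 far above the other cerebella. SPARCL1, a secreted glycoprotein of astrocytes that promotes synapses, was below all other libraries, at 617 against 2579 CPM.

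DDN, the dendrin of forebrain dendrites, whose mRNA is known to travel into dendrites, as those of CAMK2A, NRGN and ARC are, averaged 0.677 against 556 CPM, with a log2 fold change ± SE of -8.98 ± 0.59 (edgeR adjusted p 1.76e-16). Its range in the 45 others was 0.983 to 1040 CPM, so the groups overlapped. In all, 40 genes called lower had 0 counts in the 5 cerebella. TH, tyrosine hydroxylase, was one of them, at least 113-fold lower than the mean of the 45 others against a floor of 3 counts over the 5 cerebella.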
